A study of Mus musculus with 12 samples.

Results

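Liver tumors were set against normal liver in all 12 mouse libraries of the study, 3 KO tumors, 3 WT tumors, 3 KO livers and 3 WT livers, to find genes that move alike in both genotypes. The 12 libraries are the whole series. They were chosen by their titles, which mark 6 libraries as tumor and 6 as normal tissue, and genotype entered the comparison as a covariate. KO stands for mice labelled Setd2 knockout (cKO in the titles) and WT for Setd2 wild type. Tumors came from mice that received 1 intraperitoneal dose of diethylnitrosamine (DEN), 25 mg/kg, at 2 weeks of age and were killed after 8 months. The sex is given here only for the normal liver, which came from male mice of 8 months that received no DEN. All tumors therefore carry the DEN exposure and all livers lack it, so an effect of the tumor and an effect of the carcinogen cannot be told apart. No label names a Cre driver, the exons removed or the cell types concerned, and whether every library stands for a separate animal is not stated.

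DEN is a carcinogen that liver cytochrome P450 enzymes convert into a DNA alkylating agent, and given to infant male mice it leads to hepatocellular tumors. Such tumors grow from hepatocytes, which in normal liver divide rarely and divide their metabolic work along the lobule, between periportal cells that make urea and glucose and pericentral cells rich in P450 enzymes and glutamine synthetase. Setd2 encodes the methyltransferase that trimethylates lysine 36 of histone H3. RNA was measured as FPKM (fragments per kilobase, scaled to the library), a level per length, and all differences below are tumor minus liver on the scale of log2(FPKM + 1), with their standard error. In bulk tissue, fewer cells of a type and less RNA per cell cannot be told apart.

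Of 24553 entries in each table, 11671 reached 1 FPKM in at least 3 libraries and were tested with limma, and an entry was called at an adjusted p (Benjamini-Hochberg) below 0.05. Depth is unknown, because total reads are not in the files. FPKM values summed to 423498 to 626303 in the tumors and 641848 to 719538 in the livers, so every tumor lay below every liver. The median SD over genes was 0.31 (log2) in KO tumors, 0.19 in WT tumors, 0.17 in KO livers and 0.16 in WT livers. KO tumor 3 stood apart from KO tumors 1 and 2, with hepatocyte genes nearer to normal liver. Hepatocyte markers were abundant in every library, with summed levels of 20114 to 36396 FPKM in KO tumors and 45305 to 57321 in WT tumors, against 32738 to 40423 in KO livers and 40266 to 45390 in WT livers. Of the 11 markers, however, 5 fell and 0 rose (median -0.78; 1 to 6 fell with each library left out, and 1 fell and 1 rose after rescaling to a common FPKM sum). Exocrine pancreas markers stayed at or below 1.03 FPKM in sum. Setd2 itself (chromosome 9, 110532597 to 110618633, GRCm38) was at 3.14, 2.18 and 1.901 FPKM in KO tumors and 4.402, 3.61 and 4.07 in WT tumors, against 1.66, 1.93 and 1.32 in KO livers and 4.84, 3.84 and 4.701 in WT livers. It was not called between tumor and liver (0.12 ± 0.13, adjusted p = 0.52).

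With genotype as a covariate, 3449 of 11671 genes (29.6%) were called between tumor and liver. Of these, 1755 rose (15% of all tested) and 1694 fell (14.5%), and 589 of the rises and 310 of the falls were at least 2-fold. All 6 tumors lay above all 6 livers in 694 genes (5.95%) and below them in 579 (4.96%). The median difference over all genes was -0.04. When each library was rescaled to a common FPKM sum, the median over all genes became 0.28, 3977 genes were called and 87.8% of them rose, against 50.9% without rescaling. With only genes of mean FPKM 5 or more, 2027 were called and 30.7% of them rose. The balance of rises and falls thus depends on the scale, and lists whose median changed sign with it are pointed out. Below, list counts with genotype as a covariate are to be read against the 15% up and 14.5% down of all genes.

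Each genotype was then fitted alone on its own 6 libraries. In KO mice 1061 genes rose (9.09%) and 603 fell (5.17%), and in WT mice 935 rose (8.01%) and 1046 fell (8.96%). Both genotypes, which share no library, called 340 genes up (2.91%) and 152 down (1.3%), while 13 were called in opposite directions. The 492 genes called with the same sign make up 29.6% of the KO calls and 24.8% of the WT calls. A miss in one genotype does not show a difference. These single-genotype counts depend on single libraries. The KO count of 1664 became 530, 1045 and 2981 without KO tumor 1, 2 and 3, and 307, 138 and 129 without KO liver 1, 2 and 3. The WT count of 1981 became 1091 and 1274 without WT tumor 2 and 3, and 1104, 912 and 454 without WT liver 1, 2 and 3.

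**Figure D1:**
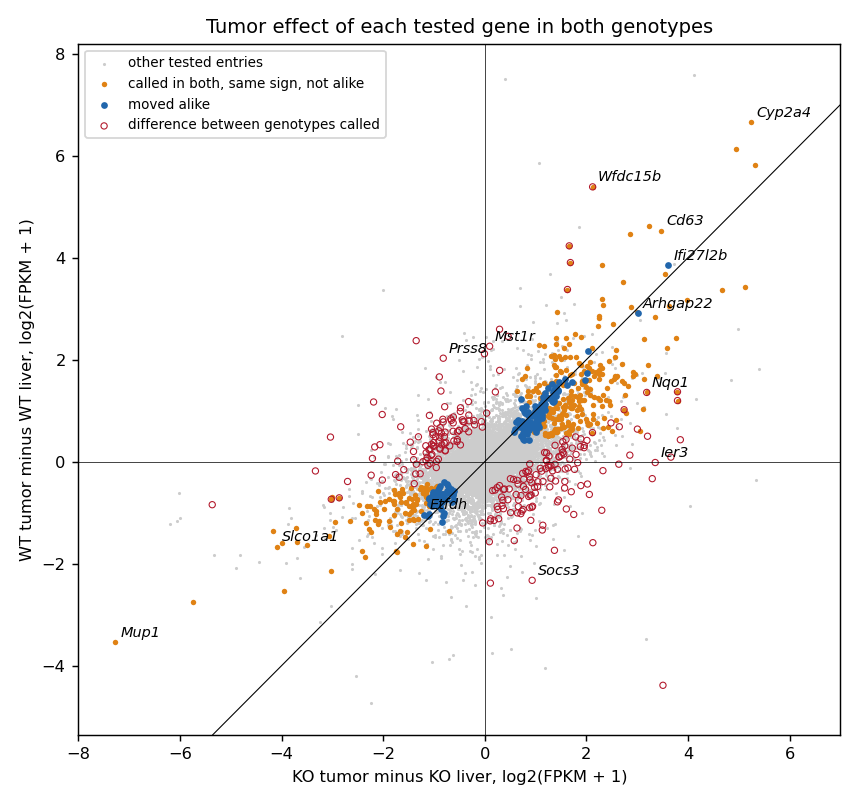
Tumor minus liver difference of each of the 11671 tested genes in KO mice (horizontal axis) and WT mice (vertical axis), both as log2(FPKM + 1). Orange and blue points are the 492 genes called with the same sign in both genotypes, blue ones the 141 that moved alike, red rings the 243 whose difference between genotypes was called, and the diagonal marks equal effects.

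To count as having moved alike, a gene had to be called with the same sign in both genotypes, and the 95% interval of the difference between both effects had to lie within 1 log2 unit either way. This held for 141 genes, 94 up (0.805%) and 47 down (0.403%). The other 351 genes called in both had an interval that reached beyond 1. The gene just inside that limit was Lims1, whose interval reached 0.999, and the one just outside was Tmem71, at 1.004. Of the 94 rises 81 had all tumors above all livers, and of the 47 falls 41 had all tumors below all livers. The rises had a median log2 difference of 0.94 (0.58 to 3.73) and the falls of -0.78 (-1.12 to -0.59). After rescaling of each library to a common FPKM sum, 122 genes moved alike, 113 up and 9 down, so the number of falls depends on the scale. Without rescaling, limits of 0.5 and 1.5 log2 units gave 8 and 297 genes. The count is fragile: it was 35, 88 and 265 without KO tumor 1, 2 and 3, 84 without WT tumor 2, 6, 1 and 8 without KO liver 1, 2 and 3, and 63, 71 and 31 without WT liver 1, 2 and 3.

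Ifi27l2b, a small gene of the interferon-inducible Ifi27 family (chromosome 12, 103450898 to 103457223, GRCm38), had the largest change among the genes that moved alike. It was at 63.5, 66.8 and 68.6 FPKM in KO tumors and 88.1, 64.5 and 57.97 in WT tumors, against 6.18, 3.299 and 4.47 in KO livers and 3.001, 5.13 and 3.67 in WT livers. Every tumor exceeded every liver about as much in one genotype as in the other, with 3.60 in KO and 3.85 in WT mice, a 95% interval of the difference of -0.93 to 0.44, and a common effect of 3.73 ± 0.16 (adjusted p = 1.81e-07). Other large rises in this set, chosen after their values were seen, were those of Arhgap22, a GTPase-activating protein for Rac, with 3.01 in KO and 2.91 in WT mice, and Rhoc, a small GTPase of cell movement, with 2.03 and 2.17. Ifngr1, the ligand-binding chain of the interferon gamma receptor, rose by 1.61 in KO and 1.51 in WT mice. Smox, the spermine oxidase, rose by 1.32 and 1.53, and P2rx7, an ATP-gated channel, by 1.44 and 1.38. Rrm1, the large subunit of ribonucleotide reductase, also rose alike, by 0.83 in KO and 0.71 in WT mice.

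Among the falls that were alike, Etfdh, which passes electrons from fatty acid oxidation to ubiquinone, changed most. Etfdh was at 35.7, 40.8 and 53.2 FPKM in KO tumors and 41.4, 67.04 and 71.02 in WT tumors, against 100.2, 104 and 94.2 in KO livers and 121, 114 and 128 in WT livers. All tumors lay below all livers, with -1.20 in KO and -1.04 in WT mice (95% interval of the difference -0.81 to 0.49; common effect -1.12 ± 0.15, adjusted p = 0.00066). Its partner Etfa, a subunit of the electron transfer flavoprotein, showed -0.93 in KO and -0.56 in WT mice. Other mitochondrial genes of the set, again picked after their values were seen, were Pdhb of pyruvate dehydrogenase (-0.95 and -0.72), Pcca of propionyl-CoA carboxylase (-0.92 and -0.71), Opa1 of inner membrane fusion (-0.76 and -0.74) and the translation factor Gfm1 (-0.66 and -0.64).

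**Figure D2:**
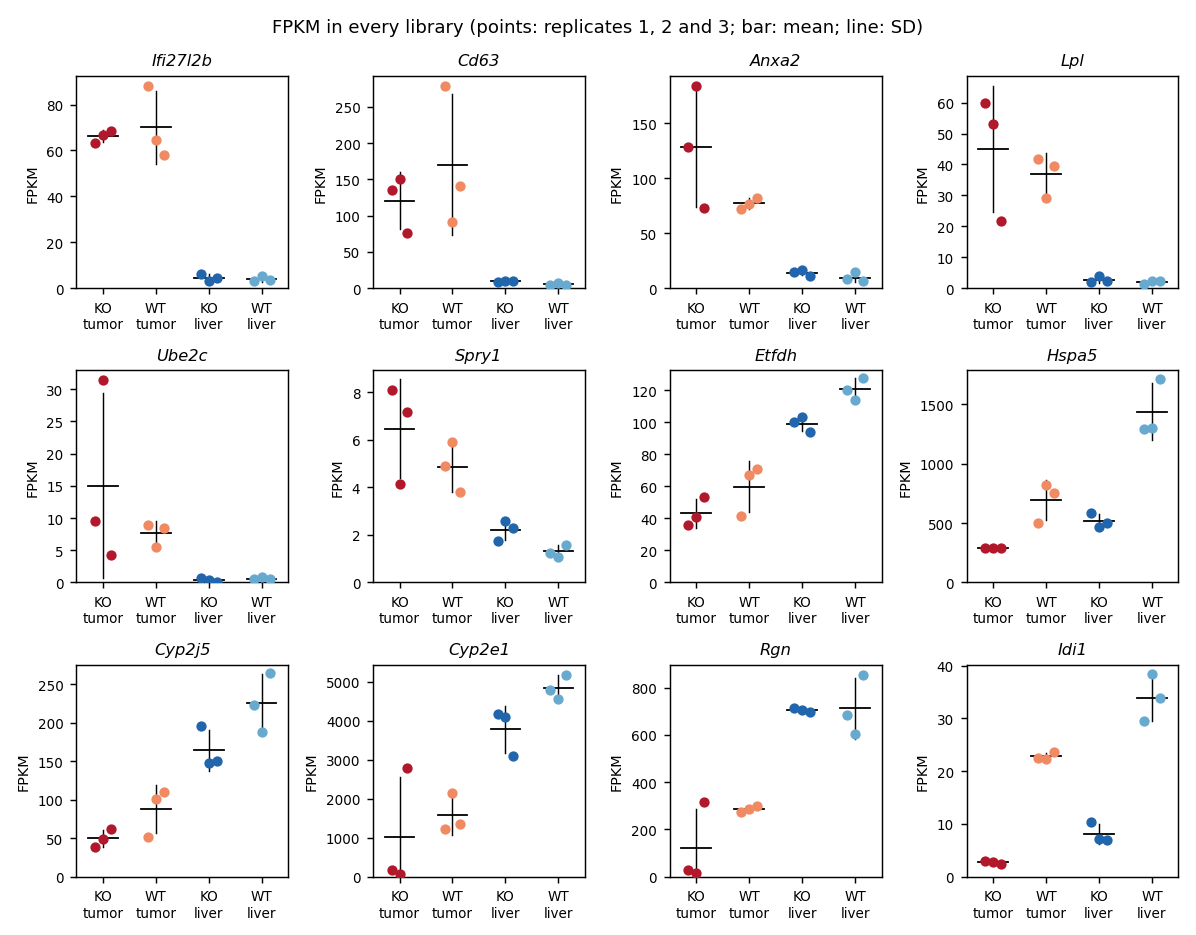
FPKM of 12 genes in every library, with replicates 1, 2 and 3 as points from left to right, the group mean as a bar and the SD as a line that ends at 0 where it would fall below. Ifi27l2b, Cd63, Anxa2, Lpl, Ube2c and Spry1 lie higher in all 6 tumors than in all 6 livers, Etfdh, Cyp2j5, Cyp2e1 and Rgn lie lower, and Hspa5 and Idi1 overlap between tumors and livers, with levels that also differ between genotypes.

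Among genes called in both genotypes, with all tumors apart from all livers and a mean of 5 FPKM or more in the higher tissue, the largest rises were led by Cyp2a4, a steroid hydroxylase gene that is female-biased in mouse liver. Cyp2a4 (chromosome 7, 26307169 to 26315088, GRCm38) was at 1538, 368 and 2031 FPKM in KO tumors and 4315, 583 and 757 in WT tumors, against 42.3, 20.1 and 22.9 in KO livers and 10.2, 9.998 and 14.1 in WT livers. The lowest tumor lay far above the highest liver (log2 difference 5.94 ± 0.55, adjusted p = 8.97e-05). Its near-identical neighbor Cyp2a5 may share reads, so this value is uncertain for the single gene. Spink1, a secreted trypsin inhibitor, followed at 224, 89.6 and 144 FPKM in KO tumors and 172, 108 and 57.7 in WT tumors, against 1.97, 4.88 and 1.67 in KO livers and 0.373, 0.823 and 1.43 in WT livers (5.57 ± 0.31). Akr1c18, an aldo-keto reductase that inactivates progesterone, was at 187, 11.3 and 102 FPKM in KO tumors and 144, 110.4 and 81.3 in WT tumors, against 1.52, 0.977 and 0.646 in KO livers and 0.517, 0.532 and 0.657 in WT livers (5.54 ± 0.53). KO tumor 2 was the lowest tumor here. That every tumor exceeded every liver was required of all genes in this ranking and is no added result.

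Cd63, a tetraspanin of endosomes and exosomes, was at 136, 149.9 and 76.5 FPKM in KO tumors and 279, 91.3 and 140.4 in WT tumors, against 7.96, 10.5 and 10.3 in KO livers and 4.86, 7.35 and 5.06 in WT livers (4.0 ± 0.29). Lpl, the lipoprotein lipase that frees fatty acids from circulating lipoproteins, was at 59.99, 53.2 and 21.8 FPKM in KO tumors and 41.9, 29.1 and 39.4 in WT tumors, against 1.92, 3.82 and 2.302 in KO livers and 1.30, 2.21 and 2.31 in WT livers (3.62 ± 0.23). Lpl had nearly the same effect in KO (3.55) and WT mice (3.69), although the interval of the difference was -1.19 to 0.93. Cpe, carboxypeptidase E of prohormone processing, ran 4.499 to 89.1 FPKM in the 6 tumors (median 37.7) and 0.384 to 2.704 in the 6 livers (median 0.677). Cbr3, a carbonyl reductase, ran 14.4 to 86.4 FPKM in the 6 tumors (median 26.1) and 0.7404 to 3.03 in the 6 livers (median 1.73). Psat1, which makes phosphoserine for serine synthesis, ran 2.85 to 70.5 FPKM in the 6 tumors (median 9.61) and 0.217 to 1.19 in the 6 livers (median 0.484). Tspan8, another tetraspanin, ran 7.18 to 133 FPKM in the 6 tumors (median 42.6) and 1.15 to 5.302 in the 6 livers (median 1.92) and Bex1, a small adaptor protein gene, 8.71 to 160.3 FPKM in the 6 tumors (median 13.5) and 0.218 to 0.776 in the 6 livers (median 0.442). The log2 differences of these 5 genes were 4.01, 3.58, 3.12, 3.67 and 3.93 in the order given. Wfdc15b completed the 12 largest rises (3.75), but it rose less in KO (2.12) than in WT mice (5.39), a difference that passed its test (adjusted p = 0.049).

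The largest falls by the same rule included secreted proteins, uptake carriers and detoxifying enzymes of hepatocytes. Mup1, a major urinary protein, was at 5.37, 2.93 and 152 FPKM in KO tumors and 66.5, 124 and 173 in WT tumors, against 2937, 2390.2 and 2022 in KO livers and 312, 3638 and 2031 in WT livers (-5.41 ± 0.98, adjusted p = 0.0031). Single Mup values are uncertain, because these genes are near copies of each other, and Mup3 (-2.63) and Mup21 (-2.57) fell too. Slco1b2, an uptake carrier for bile acids and drugs, was at 23.99, 15.4 and 83.2 FPKM in KO tumors and 83.2, 114 and 77.6 in WT tumors, against 242, 368 and 226 in KO livers and 246, 219.6 and 286 in WT livers (-2.26 ± 0.40). Its relative Slco1a1 ran 0.417 to 32.3 FPKM in the 6 tumors (median 20.5) and 42 to 111 in the 6 livers (median 86.9) (-2.88 ± 0.58). Cyp2c29, a P450 enzyme with close paralogs, was at 36.96, 133 and 311 FPKM in KO tumors and 189, 299 and 309 in WT tumors, against 945, 872 and 1022 in KO livers and 963, 1214 and 1317 in WT livers (-2.59 ± 0.41). That these carriers and enzymes were lower in all 6 tumors than in any liver was required by the rule.

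Rgn, regucalcin, a calcium-binding lactonase, was at 30.0, 14.6 and 314 FPKM in KO tumors and 275, 286 and 299 in WT tumors, against 715, 707 and 695 in KO livers and 682, 602 and 854 in WT livers (-2.51 ± 0.65). The WT tumors agreed closely, whereas KO tumors 1 and 2 lay far below KO tumor 3. Pon1, the serum paraoxonase, ran 9.16 to 311 FPKM in the 6 tumors (median 189.6) and 384 to 800.3 in the 6 livers (median 619.9) (-2.76). Sult2a8, a sulfotransferase, ran 5.28 to 127 FPKM in the 6 tumors (median 75.3) and 206 to 342 in the 6 livers (median 266) (-2.80), and Lect2, a secreted hepatokine, 12.9 to 91.4 FPKM in the 6 tumors (median 65.4) and 154 to 250.3 in the 6 livers (median 179) (-1.92). Susd4, a complement inhibitor, and Slc15a5, of the peptide transporter family, completed the 12, with -2.09 and -2.06. All 12 falls were larger in KO than in WT mice by their point estimates, but none of these differences passed its test (adjusted p = 0.12 for Slc15a5, the smallest, to 0.61 for Susd4, the largest). None of the 12 met the rule for having moved alike.

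**Figure D3:**
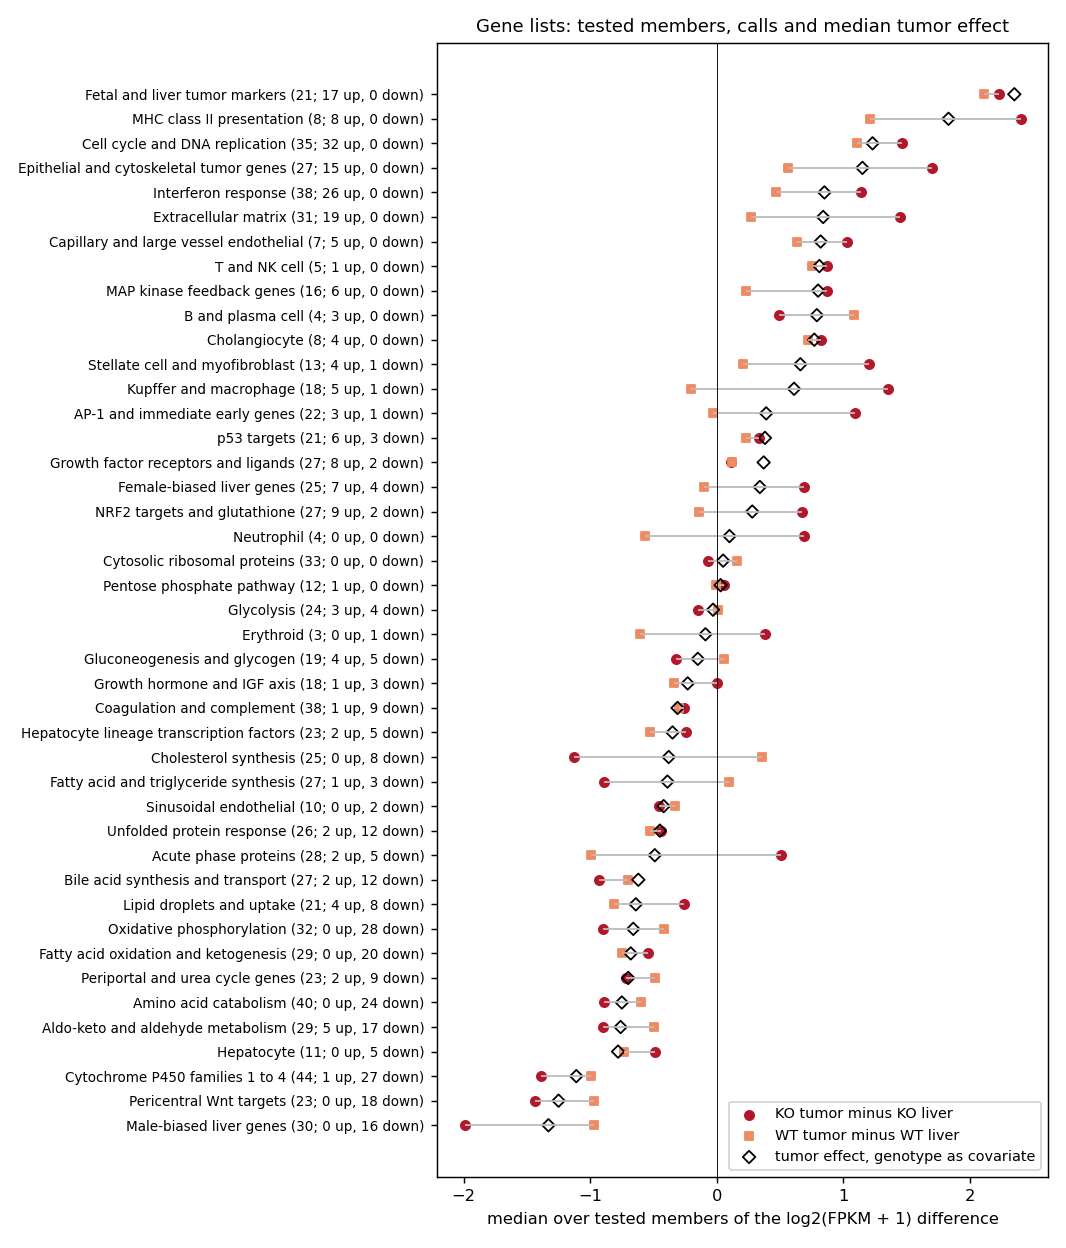
Median log2(FPKM + 1) difference, tumor minus liver, over the tested members of each gene list with 3 or more, in KO mice (circles), in WT mice (squares) and with genotype as a covariate (diamonds). Numbers in brackets give tested members and those called up and down; the diamonds run from 2.35 for fetal and tumor markers to -1.33 for male-biased liver genes, and circles and squares lie apart for cholesterol synthesis, acute phase and macrophage genes.

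All gene lists were written with earlier results of these data known, so no list is independent evidence of its direction. Genes of cell division rose together. Of 35 tested members of the cell cycle and replication list 32 rose and 0 fell (91.4% called, against 15% of all genes called up), with a median of 1.23, and in 24 of them all tumors exceeded all livers. In KO mice alone 16 rose (median 1.46) and in WT mice 27 (median 1.11). Ube2c, which loads ubiquitin for the anaphase-promoting complex, was at 9.52, 31.3 and 4.203 FPKM in KO tumors and 8.94, 5.43 and 8.49 in WT tumors, against 0.694, 0.427 and 0.0713 in KO livers and 0.475, 0.777 and 0.541 in WT livers (2.77 ± 0.36, adjusted p = 0.00062). Mki67, the proliferation marker Ki-67, was at 3.07, 5.82 and 1.15 FPKM in KO tumors and 2.46, 1.49 and 1.77 in WT tumors, against 0.1097, 0 and 0.00522 in KO livers and 0.0865, 0.363 and 0.315 in WT livers (1.56 ± 0.25). KO tumor 2 was highest and KO tumor 3 lowest among the tumors for both. Birc5, the mitotic survivin, ran 2.88 to 16.4 FPKM in the 6 tumors (median 6.18) and 0.358 to 1.09 in the 6 livers (median 0.5899) (2.16 ± 0.27). Ccnb2, a mitotic cyclin, ran 2.58 to 13.03 FPKM in the 6 tumors (median 4.24) and 0.212 to 0.509 in the 6 livers (median 0.439) (2.08 ± 0.28), and Top2a, the topoisomerase that untangles replicated chromosomes, 1.19 to 6.62 FPKM in the 6 tumors (median 2.79) and 0.0937 to 0.474 in the 6 livers (median 0.155) (1.73 ± 0.24). Ccnd1, the growth-factor-driven cyclin D1, shares an entry with a microRNA gene. That entry ran 8.41 to 27.5 FPKM in the 6 tumors (median 16.2) and 1.48 to 9.31 in the 6 livers (median 6.88) and rose by 1.43 ± 0.35, though the ranges overlapped.

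Promoters of cell cycle genes often carry CCAAT boxes, bound by NF-Y, and a cell cycle homology element, TTTGAA, bound by the MuvB complex. The sequences before the start sites of Birc5, Ube2c, Ccnb2 and Top2a, the 4 list members with the smallest adjusted p, are shown because these genes rose together. They are 250 bases upstream from RefSeq on GRCm38.p6, chr11:117848987-117849236 on the plus strand for Birc5, chr2:164769679-164769928 on the plus strand for Ube2c, chr9:70421555-70421804 on the minus strand for Ccnb2, chr11:99024190-99024439 on the minus strand for Top2a, printed 5′ to 3′ on the gene's strand. Capitals mark CCAAT and TTTGAA on either strand (ATTGG and TTCAAA on the strand shown), and neighboring matches can touch or overlap. The 2 motifs were chosen after these sequences had been seen. A variant of the element, TTCGAA, was also looked at and is not counted here.
Birc5: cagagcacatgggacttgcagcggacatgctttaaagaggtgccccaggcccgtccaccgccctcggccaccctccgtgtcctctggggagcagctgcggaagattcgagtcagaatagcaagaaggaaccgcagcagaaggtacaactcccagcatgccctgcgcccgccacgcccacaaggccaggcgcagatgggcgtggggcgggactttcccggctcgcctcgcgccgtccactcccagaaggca
Ube2c: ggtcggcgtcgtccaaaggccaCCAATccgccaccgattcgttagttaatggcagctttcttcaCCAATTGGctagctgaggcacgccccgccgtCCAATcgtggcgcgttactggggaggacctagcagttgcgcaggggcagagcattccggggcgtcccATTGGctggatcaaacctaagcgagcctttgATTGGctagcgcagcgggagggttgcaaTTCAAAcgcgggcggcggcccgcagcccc
Ccnb2: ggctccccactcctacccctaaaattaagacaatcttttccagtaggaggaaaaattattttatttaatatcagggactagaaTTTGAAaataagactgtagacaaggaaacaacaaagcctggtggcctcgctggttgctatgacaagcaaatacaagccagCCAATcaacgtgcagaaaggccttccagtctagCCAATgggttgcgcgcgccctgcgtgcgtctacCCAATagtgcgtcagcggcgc
Top2a: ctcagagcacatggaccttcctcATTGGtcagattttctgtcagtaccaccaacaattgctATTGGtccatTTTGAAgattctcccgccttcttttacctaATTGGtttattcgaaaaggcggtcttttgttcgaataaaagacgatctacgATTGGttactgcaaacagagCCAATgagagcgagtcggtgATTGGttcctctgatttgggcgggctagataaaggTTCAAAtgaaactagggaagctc
Ube2c held 6 CCAAT matches and 1 TTTGAA match, Ccnb2 held 3 and 1, Top2a held 6 and 2, and Birc5 held 0 of either in this window. Of the 35 tested genes 27 matched a promoter, with 28 start sites, and CCAAT occurred in 22 of these 28 sequences (78.6%), against 33.8% of 32851 mouse promoters of the same length. TTTGAA occurred in 9 of 28 (32.1%), against 16.0%, and both occurred in 9 of 28 (32.1%), against 5.5%. A match is a description of letters and no sign of binding.

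Fetal liver and tumor marker genes were higher in tumors as a list, but the single tumors differed widely. Of 21 members 17 rose and 0 fell, with a median of 2.35. The list was partly chosen from earlier results of these libraries and is no independent evidence of its direction. Golm1, a Golgi membrane protein used as a serum marker of liver cancer, was at 32.3, 35.7 and 10.3 FPKM in KO tumors and 19.4, 9.07 and 8.19 in WT tumors, against 4.37, 3.94 and 4.08 in KO livers and 1.16, 1.26 and 0.549 in WT livers (2.44 ± 0.29). Ddr1, a collagen-binding receptor kinase, was at 15.8, 17.96 and 5.61 FPKM in KO tumors and 2.14, 5.52 and 4.95 in WT tumors, against 0.557, 0.8697 and 0.582 in KO livers and 0.409, 0.727 and 0.421 in WT livers (2.33 ± 0.31). Both were higher in every tumor than in any liver.

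Afp, alpha-fetoprotein, was at 191, 6.29 and 137 FPKM in KO tumors and 472, 118 and 82.3 in WT tumors, against 42.2, 22.2 and 20.1 in KO livers and 1.695, 2.59 and 1.55 in WT livers (3.45 ± 0.98, adjusted p = 0.022). KO tumor 2 lay below every KO liver, and the KO livers themselves stood above the WT livers, so the call comes with 5.85 in WT mice (adjusted p = 0.0031) and 1.06 in KO mice (adjusted p = 0.55). Gpc3, the fetal glypican of hepatocellular carcinoma, was at 109.7, 1.86 and 83 FPKM in KO tumors and 164, 53.2 and 0.541 in WT tumors, against 1.35, 1.71 and 0.809 in KO livers and 0.769, 0.553 and 0.614 in WT livers (3.79 ± 1.08). It was close to the level of the livers in KO tumor 2 and in WT tumor 3. H19, an imprinted noncoding RNA in an entry shared with its microRNA, was at 193, 5876 and 128 FPKM in KO tumors and 796, 22.99 and 48.1 in WT tumors, against 19.6, 12.9 and 15.1 in KO livers and 11.7, 20.01 and 14.7 in WT livers (3.80 ± 1.02). Igf2, its neighboring fetal growth factor gene, was at 4.14, 194 and 2.57 FPKM in KO tumors and 72.2, 0.301 and 0.5395 in WT tumors, against 0.916, 0.938 and 0.879 in KO livers and 0.495, 0.902 and 0.535 in WT livers, and its 2.35 ± 1.10 did not pass (adjusted p = 0.12). KO tumor 2 and WT tumor 1 were the high tumors for both H19 and Igf2, while Afp and Gpc3 were low in KO tumor 2.

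**Figure D4:**
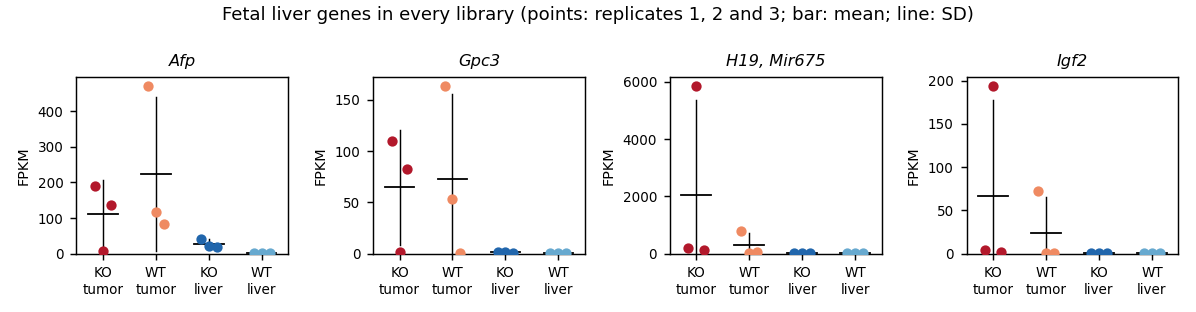
FPKM of Afp, Gpc3, the entry of H19 and Mir675, and Igf2 in every library, with replicates 1, 2 and 3 as points from left to right, the mean as a bar and the SD as a line that ends at 0 where it would fall below. WT tumor 1 is among the highest for all 4, whereas KO tumor 2 is the highest for H19 and Igf2 and the lowest or second lowest tumor for Afp and Gpc3.

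Epithelial and cytoskeletal genes rose in 15 of 27 members and fell in 0 (median 1.15), another list partly drawn from earlier results. Anxa2, a membrane-binding annexin, was at 129, 184 and 73.4 FPKM in KO tumors and 72.5, 76.3 and 82.5 in WT tumors, against 14.9, 16.2 and 11.6 in KO livers and 8.24, 14.7 and 6.28 in WT livers (2.97 ± 0.22, adjusted p = 1.75e-05). Its effects of 3.01 in KO and 2.94 in WT mice differed by -0.95 to 1.09 (95% interval), which narrowly exceeds the limit for having moved alike. Mfge8, a bridge for uptake of dying cells, ran 36.9 to 179.9 FPKM in the 6 tumors (median 46.9) and 3.66 to 7.68 in the 6 livers (median 7.06) (3.09 ± 0.29). S100a11, a calcium-binding protein, ran 60.7 to 455 FPKM in the 6 tumors (median 114) and 10.8 to 27.8 in the 6 livers (median 24.2) (2.56 ± 0.29). Cdh1, E-cadherin, which is periportal in normal liver, was at 40.1, 20.95 and 19 FPKM in KO tumors and 34.4, 30.6 and 34.99 in WT tumors, against 6.63, 8.68 and 12.3 in KO livers and 5.08, 6.498 and 4.804 in WT livers (1.91 ± 0.24). All 4 were higher in every tumor.

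Signaling genes moved less uniformly. Feedback genes of the MAP kinase pathway rose in 6 of 16 members and fell in 0 (median 0.80; 7 in KO and 3 in WT mice alone). Spry1, an inhibitor of receptor kinase signaling, was at 8.104, 4.14 and 7.19 FPKM in KO tumors and 4.89, 5.91 and 3.81 in WT tumors, against 1.74, 2.58 and 2.31 in KO livers and 1.26, 1.08 and 1.58 in WT livers. It moved alike, with 1.19 in KO and 1.34 in WT mice. Dusp5, an ERK phosphatase, ran 1.87 to 12.6 FPKM in the 6 tumors (median 7.79) and 0.3897 to 3.46 in the 6 livers (median 0.856) (1.94 ± 0.33), and Spred2, another inhibitor of the pathway, 2.92 to 5.29 FPKM in the 6 tumors (median 4.005) and 1.403 to 3.24 in the 6 livers (median 2.24) (0.63 ± 0.14), both with overlap. Dusp4 was called as well (1.29 ± 0.31), a call that 1 of 26 alternatives ended. Growth factor ligands and receptors rose in 8 of 27 members, against 15% of all genes, and fell in 2, against 14.5%. Without KO liver 1 only 5 of the 27 rose, against 1292 of all 11671 genes. Those called included Hbegf, a ligand of the epidermal growth factor receptor (1.24 ± 0.23), and Bmp2, a ligand that in liver restrains iron uptake through hepcidin (-1.29 ± 0.25). Egfr, the receptor itself, was at 59.1, 11.1 and 82.5 FPKM in KO tumors and 40.5, 109 and 73.9 in WT tumors, against 103, 40.7 and 58.8 in KO livers and 163, 209.8 and 185 in WT livers and did not pass (-1.06 ± 0.44, adjusted p = 0.088).

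Targets of p53 rose in 6 of 21 members and fell in 3, a share of falls close to the 14.5% of all genes, with a median of 0.38 (11 up and 1 down after rescaling, 6 up and 1 down with quantile normalization). Tnfrsf10b, a death receptor for TRAIL, was at 2.48, 1.32 and 1.55 FPKM in KO tumors and 1.37, 1.12 and 1.01 in WT tumors, against 0.576, 0.466 and 0.514 in KO livers and 0.0253, 0.194 and 0.0687 in WT livers and moved alike in both genotypes (0.92 ± 0.12). Fas, the other death receptor of the list, was at 6.16, 4.49 and 9.02 FPKM in KO tumors and 9.65, 10.4 and 9.74 in WT tumors, against 15.8, 13.02 and 13.4 in KO livers and 14.1, 21 and 23.4 in WT livers and fell alike (-0.96 ± 0.16). Phlda3, an inhibitor of AKT, rose (1.14 ± 0.20), with KO livers above WT livers. Cdkn1a, the cell cycle inhibitor p21, was at 16.97, 91.7 and 58.5 FPKM in KO tumors and 8.53, 38.9 and 44.3 in WT tumors, against 13.9, 29.2 and 15.7 in KO livers and 11.04, 5.03 and 12.7 in WT livers, a difference of 1.31 ± 0.46 at the threshold (adjusted p = 0.05).

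Pericentral genes, which Wnt signaling maintains around the central vein, fell in 18 of 23 members, against 14.5% of all genes, and rose in 0 (median -1.25). After rescaling to a common sum 15 fell, 1 rose and the median was -0.89. Cyp2e1, the ethanol-oxidizing P450 that also activates DEN, was at 173, 66.6 and 2796 FPKM in KO tumors and 1222, 2139.5 and 1352 in WT tumors, against 4167, 4103 and 3093 in KO livers and 4800.1, 4546 and 5181 in WT livers (-2.61 ± 0.73, adjusted p = 0.02). KO tumor 3 was the highest tumor and KO tumors 1 and 2 the lowest. Cyp1a2, a pericentral P450, was at 107, 16.6 and 272 FPKM in KO tumors and 106, 219 and 175 in WT tumors, against 373, 414 and 343 in KO livers and 418, 519.8 and 414 in WT livers (-1.86 ± 0.51). Glul, glutamine synthetase, shares an entry with a microRNA gene and ran 52.8 to 207 FPKM in the 6 tumors (median 133) and 212 to 364 in the 6 livers (median 295) (-1.12 ± 0.26). Lgr5, the R-spondin receptor, ran 0.0738 to 0.602 FPKM in the 6 tumors (median 0.325) and 0.743 to 1.94 in the 6 livers (median 1.40) (-0.81 ± 0.16) and Avpr1a, a vasopressin receptor, 1.84 to 11.4 FPKM in the 6 tumors (median 5.38) and 15.8 to 50.8 in the 6 livers (median 18.7) (-2.03 ± 0.44). In each of these 5 entries every tumor lay below every liver. The mean of the 11 general hepatocyte markers, relative to the 6 livers, was -1.33, -1.42 and -0.30 in KO tumors and -1.54, -0.15 and -0.09 in WT tumors, against -0.53 to 0.43 in the livers. Their part in the falls of this and the following hepatocyte groups was not tested.

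Periportal and urea cycle genes fell in 9 of 23 members (5 without WT tumor 1) and rose in 2 (median -0.70; 5 down and 4 up after rescaling). Cps1, which makes carbamoyl phosphate for urea, was at 70.8, 173 and 477 FPKM in KO tumors and 326, 486 and 535 in WT tumors, against 734, 564 and 706 in KO livers and 890.5, 846 and 1137 in WT livers (-1.49 ± 0.37). Otc, the next enzyme of the cycle, was at 110.4, 97.2 and 175 FPKM in KO tumors and 177, 171 and 227 in WT tumors, against 267, 285 and 265 in KO livers and 307, 281 and 358 in WT livers (-0.93 ± 0.16). Tumors and livers did not overlap for either gene. In the opposite direction, Hsd17b13, a lipid droplet enzyme, was at 1004, 684 and 786 FPKM in KO tumors and 607, 502 and 774 in WT tumors, against 352, 325 and 431 in KO livers and 300.0, 276 and 297 in WT livers. It rose alike, by 1.15 in KO and 1.08 in WT mice.

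Cytochrome P450 genes of families 1 to 4 fell in 27 of 44 members and rose in 1 (median -1.11), with 20 down and 2 up after rescaling. Cyp2j5, an arachidonic acid epoxygenase, was at 38.5, 49.1 and 61.4 FPKM in KO tumors and 52.1, 101 and 110.0 in WT tumors, against 195, 148 and 150.2 in KO livers and 223, 189 and 264 in WT livers (-1.56 ± 0.20, adjusted p = 0.00058). It was lower in all tumors, with -1.72 in KO and -1.41 in WT mice. Among these 44 members, which do not include Cyp2a4 with its large rise, the single rise was that of Cyp4a31, a fatty acid hydroxylase with close paralogs (1.44 ± 0.28). Aldehyde and aldo-keto genes fell in 17 of 29 members, against 14.5% of all genes, among them Aldh6a1 (-1.09 ± 0.21). They rose in 5, a share close to the 15% of all genes, among them Akr1b3, an aldose reductase (1.82 ± 0.20). After rescaling 10 of the 29 fell and 6 rose. Bile acid genes fell in 12 of 27 and rose in 2. Cyp7a1, the rate-limiting enzyme of bile acid synthesis, was at 1.01, 2.42 and 17.7 FPKM in KO tumors and 14.5, 10.2 and 5.25 in WT tumors, against 7.48, 11.3 and 9.83 in KO livers and 10.5, 7.79 and 14.7 in WT livers and did not pass (-0.62 ± 0.46, adjusted p = 0.34), while Abcc4, an efflux pump of the hepatocyte's blood side, rose (1.69 ± 0.26).

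Sex-biased liver genes were lower where they are male-biased, in 16 of 30 members with 0 up (median -1.33, with -1.99 in KO and -0.97 in WT mice). The sex of the tumor mice is not given here, and its part in this and the following changes was not tested. Female-biased genes rose in 7 of 25 and fell in 4, against 15% and 14.5% of all genes (median 0.34, with 0.69 in KO and -0.10 in WT mice). Without KO tumor 3, 6 of them rose and 9 fell (median 0.14). Abcd2, a peroxisomal transporter, rose (2.19 ± 0.39) and Cyp3a44 fell (-1.54 ± 0.31), both counted as female-biased. Growth hormone sets this sex pattern in liver. Ghr, its receptor, was at 31.6, 93.3 and 123 FPKM in KO tumors and 103, 137 and 148 in WT tumors, against 263, 249.8 and 239.8 in KO livers and 246, 255 and 295 in WT livers (-1.42 ± 0.29), lower in all tumors. Igf1, the growth factor that it induces, was at 27.7, 29.5 and 122 FPKM in KO tumors and 58.9, 101 and 158 in WT tumors, against 152, 116 and 118 in KO livers and 231, 211 and 218 in WT livers (-1.30 ± 0.34), with overlap. The growth hormone list as a whole had 1 of 18 up and 3 down, a share of falls close to the 14.5% of all genes. Its median of -0.23 became 0.11 after rescaling.

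Mitochondrial energy genes were lower by small amounts in most members. Of 32 genes of oxidative phosphorylation 28 fell and 0 rose (median -0.66; 6 fell in KO and 10 in WT mice alone). After rescaling 10 fell (median -0.30, with all genes at 0.28), and after quantile normalization 7 fell (median -0.25), so the number of calls depends on the scale while the sign of the median stayed the same in both. Sdha, the flavoprotein of complex II, was at 75.1, 60.4 and 125 FPKM in KO tumors and 115, 107 and 132 in WT tumors, against 178, 161 and 146 in KO livers and 247, 210.3 and 242 in WT livers (-0.96 ± 0.16). Uqcrc2, a core protein of complex III, was at 67.6, 78.7 and 113 FPKM in KO tumors and 114, 99.2 and 116 in WT tumors, against 165, 167 and 145 in KO livers and 155, 154 and 165 in WT livers and moved alike (-0.71 ± 0.14). Both were lower in every tumor.

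Fatty acid oxidation and ketogenesis genes fell in 20 of 29 and rose in 0 (median -0.68; 11 fell after rescaling, median -0.31). Slc25a20, the carnitine carrier of the inner membrane, was at 35.9, 46.8 and 64.5 FPKM in KO tumors and 44.1, 47.01 and 44.3 in WT tumors, against 90.7, 86.4 and 82.6 in KO livers and 82.5, 96.2 and 84.1 in WT livers (-0.89 ± 0.13), and Hadh of the oxidation spiral followed (-0.71 ± 0.12). Amino acid catabolism fell in 24 of 40 and rose in 0 (median -0.75; 13 down and 1 up after rescaling), with Gnmt, the glycine methyltransferase, at 339, 389 and 1032 FPKM in KO tumors and 422, 854 and 1249.7 in WT tumors, against 1720.2, 2301 and 2339.7 in KO livers and 1768, 2006 and 1880.3 in WT livers (-1.66 ± 0.32). Cytosolic ribosomal protein genes had 0 of 33 called with limma (2 at an unadjusted p below 0.05) and a median of 0.05, but 24 rose after rescaling (median 0.42) and 21 after quantile normalization, so no direction can be given for them.

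Sugar metabolism showed single changes without one direction of its lists. Glycolysis genes rose in 3 of 24 and fell in 4, shares close to the 15% and 14.5% of all genes. Their median of -0.03 became 0.31 after rescaling. Gluconeogenesis and glycogen genes rose in 4 of 19 and fell in 5, with a median of -0.15 that became 0.22. The falls ran from 1 to 5 glycolysis genes and from 2 to 6 genes of gluconeogenesis and glycogen with each library left out. Both counts were lowest without KO liver 1. Slc2a1, the glucose transporter GLUT1, was at 12.7, 16.3 and 10.7 FPKM in KO tumors and 6.14, 5.53 and 5.23 in WT tumors, against 4.24, 7.405 and 5.002 in KO livers and 3.36, 2.23 and 2.48 in WT livers and moved alike (0.99 ± 0.14). Pygb, the brain form of glycogen phosphorylase, was at 15.2, 18.1 and 6.54 FPKM in KO tumors and 18.8, 10.6 and 20.6 in WT tumors, against 1.51, 1.56 and 1.86 in KO livers and 1.06, 1.23 and 0.8301 in WT livers (2.70 ± 0.24). Pck2, the mitochondrial form of phosphoenolpyruvate carboxykinase, rose in both genotypes (1.44 ± 0.22). Pkm, pyruvate kinase of proliferating tissue, was at 15.3, 50.7 and 21.5 FPKM in KO tumors and 11, 7.77 and 10.6 in WT tumors, against 8.103, 10.1 and 9.22 in KO livers and 6.11, 9.86 and 8.62 in WT livers, a difference of 0.82 ± 0.29 at the threshold (adjusted p = 0.05). G6pdx, which opens the pentose phosphate pathway, was at 31.02, 53.8 and 25.9 FPKM in KO tumors and 5.82, 16.3 and 11.8 in WT tumors, against 28.4, 12.5 and 27.98 in KO livers and 2.23, 2.86 and 2.24 in WT livers (1.21 ± 0.31). KO livers 1 and 3 lay within the range of KO tumors and KO liver 2 below it, and the effect in KO mice was 0.68 (adjusted p = 0.26), against 1.74 in WT mice (adjusted p = 0.016).

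Lipid uptake and droplet genes rose in 4 of 21 members, a share close to the 15% of all genes, and fell in 8, against 14.5%. Without KO liver 1 or WT tumor 1, 3 rose and 4 fell, and without WT liver 3, 3 rose and 5 fell. After rescaling 4 rose and 3 fell, and with quantile normalization 4 rose and 5 fell. Besides Lpl, Fabp5 and Fabp4, carriers of fatty acids that normal hepatocytes express little, rose by 2.24 ± 0.38 and 1.70 ± 0.29, and Mogat1, a monoacylglycerol acyltransferase, fell by 1.25 on the log2 scale. Secreted coagulation and complement genes fell in 9 of 38 (5 without KO liver 1, WT tumor 2 or WT liver 3) and rose in 1, with a median of -0.31 that became 0.06 after rescaling and 0.08 after quantile normalization. Mbl1, a mannose-binding lectin, was at 70.7, 94.8 and 153 FPKM in KO tumors and 81.96, 149.7 and 147 in WT tumors, against 278, 258 and 267 in KO livers and 235, 279 and 302 in WT livers (-1.27 ± 0.20). Hepatocyte lineage factors fell in 5 of 23, against 14.5% of all genes, and rose in 2 (median -0.35, 0.01 after rescaling). Of these factors 10 fell without KO tumor 3. Only 3 fell without WT tumor 1, KO liver 1 or WT liver 2, and 11 fell in WT mice alone. Hnf4a, the central one, was at 116, 108 and 158 FPKM in KO tumors and 127, 178 and 141 in WT tumors, against 179, 152 and 122 in KO livers and 234, 306 and 297 in WT livers (-0.58 ± 0.18), a call that some alternatives ended. Nr1i3, the drug-sensing receptor CAR, fell (-1.89 ± 0.46), and Onecut2 fell (-1.03 ± 0.18).

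The unfolded protein response was one of the lists with members that fell alike while both tumor and liver levels differed between genotypes. Of 26 members 12 fell and 2 rose (median -0.45; 6 down and 3 up after rescaling). Hspa5, the chaperone BiP of the endoplasmic reticulum, was at 289, 287 and 291 FPKM in KO tumors and 501, 824 and 753 in WT tumors, against 583, 465 and 501 in KO livers and 1294, 1302 and 1713 in WT livers. KO livers overlapped WT tumors, yet within each genotype the tumors were lower, with -0.83 in KO and -1.07 in WT mice. Its cofactor Dnajb9 showed -0.83 and -1.18, and Sel1l, of the degradation complex, -0.93 and -0.88, and all 3 met the rule for having moved alike. Trib3, a pseudokinase induced by stress, rose (1.95 ± 0.34).

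Interferon, class II and matrix genes rose with genotype as a covariate, but most interferon and matrix genes were not called in WT mice alone. Interferon response genes rose in 26 of 38 members and fell in 0 (median 0.85), with 19 up in KO mice alone (median 1.14) and 5 up in WT mice alone (median 0.47), against 9.09% and 8.01% of all genes. Cxcl10, a chemokine for T cells, was at 41.97, 22.05 and 8.56 FPKM in KO tumors and 9.47, 5.41 and 12.6 in WT tumors, against 3.86, 2.28 and 1.73 in KO livers and 1.81, 2.69 and 1.76 in WT livers (2.13 ± 0.34). Ifit2, an antiviral effector, was at 4.41, 1.48 and 2.93 FPKM in KO tumors and 1.87, 2.79 and 1.81 in WT tumors, against 0.903, 0.706 and 0.429 in KO livers and 0.487, 0.707 and 0.314 in WT livers and was the member that moved alike (1.12 ± 0.18). Isg15, a ubiquitin-like modifier, was at 63.8, 58.01 and 60.04 FPKM in KO tumors and 32.2, 20.3 and 12.7 in WT tumors, against 16.7, 10.5 and 12.3 in KO livers and 10.1, 12.2 and 8.88 in WT livers, where WT tumors and KO livers overlapped (1.53 ± 0.26). The difference between genotypes was called in 4 of the 38 members, all higher in KO, against 2.08% of all genes in either direction.

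All 8 tested genes of MHC class II presentation rose (median 1.83). H2-Ab1, a class II beta chain, was at 222, 348 and 77.3 FPKM in KO tumors and 63.2, 55.8 and 71.7 in WT tumors, against 25.8, 29.3 and 32.9 in KO livers and 11.9, 28.6 and 19.8 in WT livers (2.14 ± 0.34). Extracellular matrix genes rose in 19 of 31 (12 without KO liver 1) and fell in 0 (median 0.84), with 19 up in KO (median 1.45) and 7 up in WT mice alone (median 0.27). Col3a1, a fibrillar collagen, was at 42, 76.3 and 27.98 FPKM in KO tumors and 7.68, 13.5 and 9.31 in WT tumors, against 3.91, 4.16 and 4.63 in KO livers and 2.35, 4.92 and 1.25 in WT livers (2.38 ± 0.34). Sparc, a collagen-binding matrix protein, was at 103, 169 and 68.6 FPKM in KO tumors and 45.5, 35.8 and 35.4 in WT tumors, against 18.4, 18.8 and 17.8 in KO livers and 16.95, 21.8 and 13.9 in WT livers (1.80 ± 0.27). KO tumor 2 was the highest library for both matrix genes and for H2-Ab1.

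Markers of other cell types moved with these groups only in part. Macrophage markers summed to 692 to 921 FPKM in KO tumors and 200 to 567 in WT tumors, against 297 to 420 in KO livers and 318 to 483 in WT livers, with 5 of 18 members up and 1 down. Their median was 1.35 in KO and -0.20 in WT mice. Without KO tumor 3, 3 rose and 4 fell. Without KO liver 1, 2 or 3, 3 rose and 1 fell, and with quantile normalization 2 rose and 1 fell. Trem2, of lipid-associated macrophages, rose (1.49 ± 0.27), and the Kupffer cell gene Timd4 was at 0.436, 0.169 and 4.49 FPKM in KO tumors and 0.4403, 0.423 and 0.6602 in WT tumors, against 2.38, 2.64 and 2.09 in KO livers and 4.85, 4.44 and 2.14 in WT livers (-1.15 ± 0.35, a call that some alternatives ended). Stellate cell and myofibroblast markers summed to 221 to 336 FPKM in KO tumors and 94.1 to 118 in WT tumors, against 105 to 167 in KO livers and 66.0 to 104 in WT livers, with 4 of 13 up and 1 down (7 up and 0 down without WT liver 2). Capillary markers rose in 5 of 7 members, summing to 108 to 134 FPKM in KO tumors and 53.9 to 72.2 in WT tumors, against 46.5 to 52.4 in KO livers and 33.0 to 48.1 in WT livers. Esm1, a marker of tip cells, was at 20.9, 6.48 and 9.48 FPKM in KO tumors and 8.81, 5.51 and 5.82 in WT tumors, against 1.82, 0.7504 and 0.656 in KO livers and 0.659, 0.804 and 0.554 in WT livers (2.38 ± 0.24). Sinusoidal endothelial markers fell in 2 of 10, Dnase1l3 and Clec4g, a share close to the 14.5% of all genes, and rose in 0. After rescaling and with quantile normalization 1 rose and 1 fell. Without KO liver 1, 2 or 3 only 1 fell, and without KO tumor 1 there was 1 rise and 1 fall. Some alternatives ended the call of Clec4g.

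Cholangiocyte markers rose in 4 of 8 members, among them Prom1 (1.86 ± 0.26) and Sox9 (1.55 ± 0.27). Plasma cell gene Jchain was at 16.3, 3.93 and 8.73 FPKM in KO tumors and 29.8, 21 and 53.9 in WT tumors, against 2.03, 5.03 and 2.16 in KO livers and 2.15, 2.22 and 0.7698 in WT livers (2.48 ± 0.47). Of 4 tested B and plasma cell markers 3 rose, with 0 up in KO mice alone (median 0.49) and 3 up in WT mice alone (median 1.08). Mzb1 among them shares an entry with Spata24, and 10 of 26 alternatives ended the call of Cd79b. Of 5 T and NK cell markers Ccl5 rose (1.76 ± 0.49). All 5 rose without KO tumor 3 or after rescaling, and 2 without WT tumor 1 or 2. Of 4 neutrophil markers 0 were called with limma and 0 had an unadjusted p below 0.05. Erythroid genes fell in 1 of 3, which was Alas2, the erythroid aminolevulinate synthase (-1.77 ± 0.35). The part of these cell types in the changes of the interferon, class II and matrix genes was not tested.

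**Figure D5:**
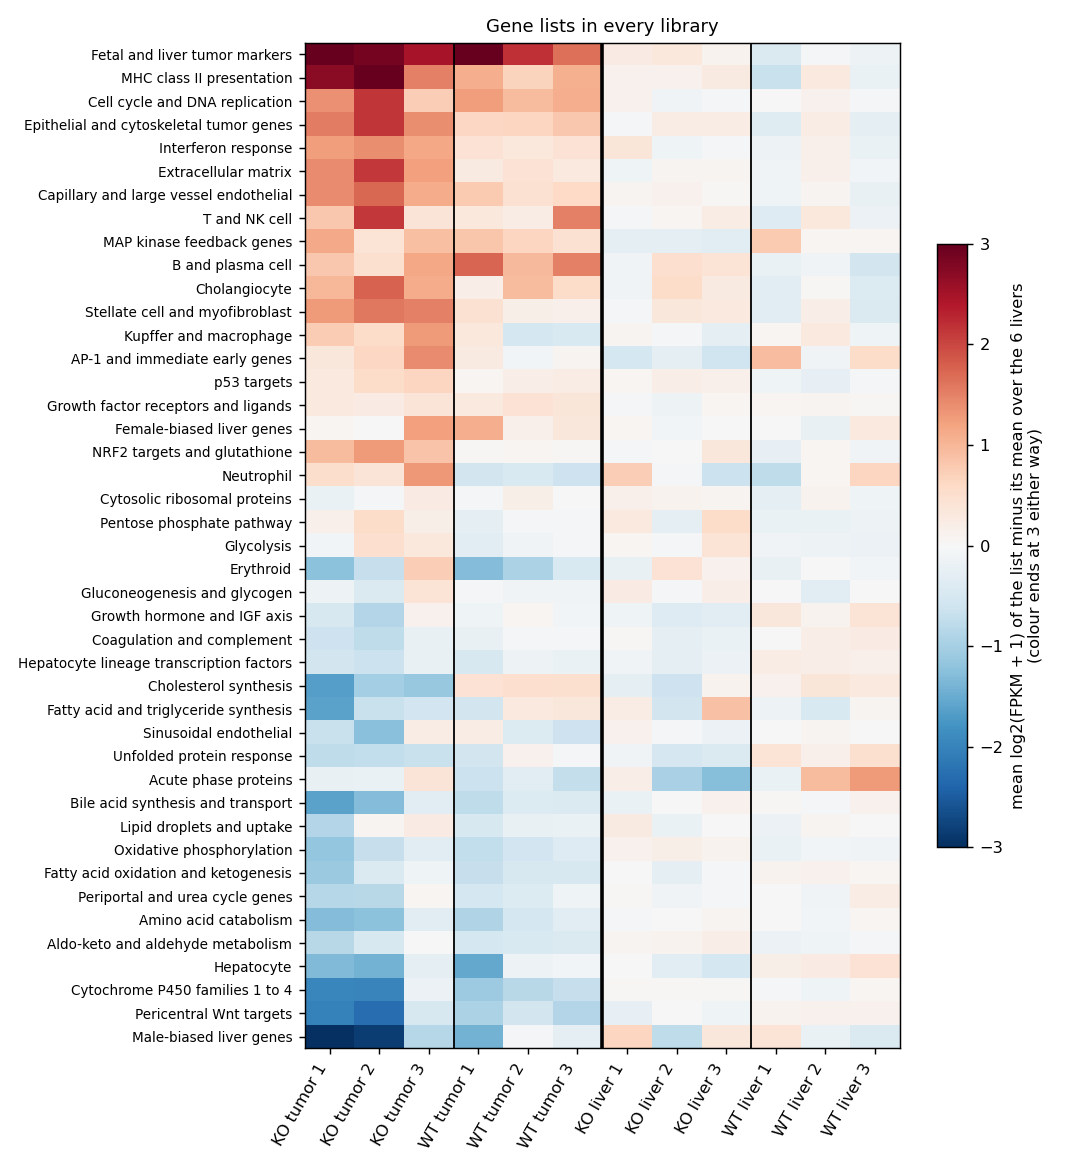
Mean log2(FPKM + 1) of the tested members of each gene list in each library, minus the mean over the 6 livers, with red for higher and blue for lower values. The 6 tumors stand left of the 6 livers; cell cycle genes are higher in all tumors (0.73 to 2.15), pericentral genes lower in all (-2.29 to -0.48), and KO tumor 3 is paler than KO tumors 1 and 2 in the hepatocyte lists.

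The size of the list changes differed among tumors, and for some lists the direction did too. The mean of the cell cycle list, relative to the 6 livers, was 1.36, 2.15 and 0.73 in KO tumors 1, 2 and 3 and 1.25, 0.96 and 1.10 in WT tumors, against -0.10 to 0.12 in the livers. The pericentral list stood at -2.03, -2.29 and -0.48 in KO tumors and -0.95, -0.54 and -0.89 in WT tumors, against -0.24 to 0.13 in the livers. For male-biased genes KO tumors stood at -3.09, -2.84 and -0.86 and WT tumors at -1.41, -0.05 and -0.26, against -0.77 to 0.65 in the livers, so the WT tumors overlapped the livers. The cholesterol synthesis list stood at -1.66, -1.03 and -1.13 in KO tumors and 0.43, 0.51 and 0.49 in WT tumors, against -0.61 to 0.37 in the livers. The macrophage list stood at 0.75, 0.54 and 1.28 in KO tumors and 0.32, -0.52 and -0.46 in WT tumors, against -0.29 to 0.30 in the livers. Without KO tumor 3, 19 of 23 pericentral genes fell and 33 of 35 cell cycle genes rose.

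The difference of both tumor effects was tested directly, and 243 genes passed (2.08%), 134 with a higher effect in KO and 109 with a lower one. At an unadjusted p below 0.05 there were 2603. The count was 1368 without KO tumor 3, 96 and 146 without KO tumor 1 and 2, 370, 29 and 18 without WT tumor 1, 2 and 3, 22 and 9 without KO liver 2 and 3, and 7 and 10 without WT liver 2 and 3. Ier3, an immediate early gene that limits cell death, was at 35.2, 21.3 and 22.1 FPKM in KO tumors and 3.03, 2.602 and 3.33 in WT tumors, against 2.22, 1.15 and 1.52 in KO livers and 3.52, 2.35 and 3.302 in WT livers. The rise was in KO mice (3.35), where WT mice showed -0.02 (difference 3.37 ± 0.30, adjusted p = 0.0025). Mst1r, the receptor of macrophage-stimulating protein, was at 0.07804, 0.289 and 0.197 FPKM in KO tumors and 5.36, 3.38 and 3.56 in WT tumors, against 0.0567, 0.145 and 0.129 in KO livers and 0.0692, 0.0221 and 0.0546 in WT livers, a rise in WT mice (2.26) where KO mice showed 0.09 (difference -2.17 ± 0.23, adjusted p = 0.0065). Nxn, a redox regulator of Wnt signaling, was at 2.03, 2.35 and 1.45 FPKM in KO tumors and 8.73, 6.77 and 9.79 in WT tumors, against 0.932, 1.55 and 0.9403 in KO livers and 0.894, 0.768 and 0.477 in WT livers (difference -2.0 ± 0.26).

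In Socs3 and Prss8 the normal livers of both genotypes stood further apart than the tumors. Socs3, a feedback inhibitor of cytokine signaling, was at 6.53, 5.99 and 8.32 FPKM in KO tumors and 4.32, 5.14 and 3.39 in WT tumors, against 5.01, 3.71 and 1.495 in KO livers and 20.9, 23.3 and 32.96 in WT livers (difference 3.26 ± 0.41, adjusted p = 0.015). Prss8, a membrane protease, was at 10.4, 10.6 and 15.98 FPKM in KO tumors and 11.5, 7.47 and 6.83 in WT tumors, against 25.3, 16.4 and 25.9 in KO livers and 1.75, 1.23 and 0.996 in WT livers (difference -2.85 ± 0.34). WT livers were the high group for Socs3 and the low group for Prss8. Cholesterol synthesis genes had a called difference in 5 of 25 members, all lower in KO. Idi1, which makes a building block of sterols, was at 2.95, 2.84 and 2.46 FPKM in KO tumors and 22.5, 22.3 and 23.6 in WT tumors, against 10.3, 7.12 and 6.97 in KO livers and 29.4, 38.4 and 33.95 in WT livers and fell in each genotype (-1.27 in KO and -0.55 in WT mice; adjusted p = 0.096 for the difference). Nqo1, a target of the antioxidant factor NRF2, had a called difference in the other direction. It was at 80.7, 76.4 and 38.7 FPKM in KO tumors and 13.4, 8.54 and 11.6 in WT tumors, against 5.21, 5.46 and 7.28 in KO livers and 3.04, 3.76 and 4.34 in WT livers, with 3.19 in KO and 1.36 in WT mice (adjusted p = 0.04 for the difference). The rise was in both genotypes, as for the matrix gene Col1a1, at 33.2, 60.1 and 14.2 FPKM in KO tumors and 3.78, 5.04 and 3.94 in WT tumors, against 1.09, 1.46 and 1.31 in KO livers and 1.16, 2.23 and 0.697 in WT livers (difference 2.60 ± 0.57, adjusted p = 0.045).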

How the data were processed

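RNA from 12 mouse livers and liver tumors was extracted with a spin-column kit, selected for poly(A) and built into libraries with a non-directional kit, per the labels' protocols, so reads of overlapping antisense genes cannot be told apart. The authors deposited 1 table of FPKM values per library. The submitters' processing notes name Cufflinks 2.2.1, TopHat2 2.1.1 and build mm10; their options and the annotation were not given in the sources used here. Counts were not recovered. For values below 0.5 FPKM, the ratio of each library to KO liver 1 was examined. No more than 0.83% of these ratios lay within any window of 0.2%, so no ratio shared by many genes was seen. The 24553 entries hold 23688 names; 865 repeat a name and 600 join several genes. Alb is listed at 0 in 11 libraries and Gapdh at 0 to 1.34, so neither was used, and 12 tested entries have an improbable 0 in a library.

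Values were analyzed as log2(FPKM + 1), which understates changes of low genes, for entries with FPKM of 1 or more in at least 3 libraries. limma 3.58.1 in R 4.3.3 was fitted with a variance trend, on all 12 libraries with genotype as covariate, on 6 libraries per genotype, and for the difference on 4 group means; tests were two-sided and adjusted by Benjamini-Hochberg over 11671 entries. P-values reflect only the spread among these libraries, which may be technical. Fits were tested on simulated data. Lists (962 symbols, of which 7 matched no entry) were described by counts and medians. Named genes were the 12 largest rises and falls called in both genotypes, with separated groups and mean FPKM of 5 or more, up to 4 members per list and per direction of the genotype difference by adjusted p, and a fixed set. Members and lists were chosen with earlier results of these data known. Coordinates were taken by gene name from GENCODE vM21 (GRCm38, the same assembly as mm10). Alternatives changed pseudocount, filter, scaling, weights, trend, block, zeros, joined names, transcript length trends (added after the data were seen) and left out each library. A few named genes are not reported here.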

Additional observations from a re-analysis of the deposited data

Results flagged for a closer look

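For 12 of the named genes the tumor effect differed between genotypes by the direct test. In these the KO effect minus the WT effect, on the log2 scale, was 3.37 for Ier3, 3.26 for Socs3, 2.71 for Abcc12, 2.60 for Col1a1, 1.83 for Nqo1, 1.55 for Col5a2 and 1.42 for Polr1a. It was -3.26 for Wfdc15b, -2.85 for Prss8, -2.17 for Mst1r, -2.0 for Nxn and -1.36 for Pstk. Wfdc15b, Col1a1, Col5a2 and Nqo1 rose in both genotypes, so only the size differed. Polr1a, the large subunit of RNA polymerase I, was at 6.74, 6.45 and 6.23 FPKM in KO tumors and 2.82, 4.31 and 3.55 in WT tumors, against 3.95, 3.36 and 3.88 in KO livers and 6.70, 6.64 and 6.52 in WT livers, a rise in KO (0.66) and a fall in WT mice (-0.75). Pstk, a kinase of selenocysteine synthesis, was at 4.97, 4.23 and 5.47 FPKM in KO tumors and 7.14, 6.25 and 6.98 in WT tumors, against 7.73, 9.501 and 10.2 in KO livers and 4.597, 4.02 and 4.05 in WT livers, a fall in KO (-0.78) and a rise in WT mice (0.58). In both genes the livers of the genotypes stood apart as well as the tumors.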

How the results depend on the processing

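The count of genes called between tumor and liver, 3449, ran from 2393 to 3733 with each library left out, was 3177 with the replicate block and 2027 with a filter of mean FPKM 5, and stayed within 1.5 times under the other alternatives. A similar count can hold different genes. After rescaling 3977 were called, 3491 up and 486 down, and 2241 of the 3449 kept their call and sign. With quantile normalization 2273 of the 3449 kept them. In WT mice the count of 1981 became 1257 without a filter, 1263 with the filter of mean FPKM 5, 3024 with array weights, 1235 with the replicate block and 1105 in 1 fit of all libraries, with 454 to 2134 on leaving out libraries. In KO mice 1664 became 543 without a filter, 670 with the filter of mean FPKM 5 and 3340 in 1 fit, with 129 to 2981 on leaving out libraries. The 243 called differences became 56 without a filter, 133 with the filter of mean FPKM 5, 115 after rescaling, 608 with array weights and 114 with the replicate block, with 7 to 1368 on leaving out libraries. The 141 genes that moved alike became 22 without a filter, 67 with the filter of mean FPKM 5, 86 with quantile normalization, 237 with array weights, 73 with the replicate block, 237 in 1 fit, 8 and 297 with limits of 0.5 and 1.5, with 1 to 265 on leaving out libraries. After rescaling they were 122, with 9 falls in place of 47. The filters change the number of genes tested; for the rest the cause was not tested.

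Of 168 named genes called, 144 were called under every alternative, 24 lost the call in at least 1 and 0 reversed. These genes were largely picked for large separated changes or small adjusted p, so their share does not stand for all calls. No pairing by replicate number was seen: r between deviations of same-numbered samples ran from -0.28 to 0.35, was over 0.1 in 3 of 18 pairs, and 3 of 12 libraries correlated best with their own number. Differently numbered samples ran from -0.30 to 0.21, and the highest r of all was that of KO tumor 1 with WT tumor 1. With 3 libraries per group these values cannot show that samples were unpaired. On 10075 genes with a transcript length 3069 were called, and 3194 after removal of each library's trend with length. Unknown depth leaves counting error unmeasured. Tumor and carcinogen cannot be told apart.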

Other observations

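Several gene lists had different medians in KO and WT mice. In KO mice cholesterol synthesis genes fell in 11 of 25 members, against 5.17% of all genes, and rose in 0, against 9.09% (median -1.13). In WT mice 6 rose, against 8.01%, and 3 fell, a share near the 8.96% of all genes (median 0.36). Acute phase genes rose in 3 of 28 and fell in 1 in KO mice (median 0.51), close to the 9.09% and 5.17% of all genes, and rose in 1 and fell in 8 in WT mice (median -0.99). For AP-1 and immediate early genes 7 of 22 rose and 0 fell in KO mice, against 0 up and 2 down in WT mice (medians 1.09 and -0.03); the falls in WT mice are close to the 8.96% of all genes. The difference itself was called for 5 cholesterol genes, all lower in KO, for 4 acute phase genes and 3 AP-1 genes, all higher in KO. How these list counts in single genotypes change with a library left out was not tested.

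NRF2 targets rose in 9 of 27 members and fell in 0 in KO mice, against 9.09% and 5.17% of all genes. In WT mice 8 rose and 4 fell, against 8.01% and 8.96%. The difference was called for 5, all higher in KO. Elovl3, a male-biased fatty acid elongase gene, was at 0.684, 3.44 and 9.09 FPKM in KO tumors and 11.8, 98.2 and 180.2 in WT tumors, against 134, 506 and 303 in KO livers and 119, 62.9 and 107 in WT livers. Its common effect of -3.32 ± 0.99 passed with limma (adjusted p = 0.027), a call that 7 of 27 alternatives ended, yet the effect was -6.02 in KO and -0.61 in WT mice, and the difference missed the threshold (adjusted p = 0.055). Spp1, osteopontin, was at 554, 3505 and 254 FPKM in KO tumors and 60.5, 632 and 377 in WT tumors, against 66.5, 66.7 and 64.3 in KO livers and 32.9, 124 and 41.2 in WT livers, with KO tumor 2 far above all others.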
